A study of Mus musculus with 2 samples.

Results

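The bitter taste receptor genes of the mouse were examined in embryonic stem cells for H3K9me3, a histone H3 tail with 3 methyl groups on lysine 9. Members were all protein-coding genes whose symbol starts with Tas2r. The rule found 35 of 22367 protein-coding genes in the mm9 annotation (GENCODE M1) and the same 35 symbols among 21887 in the mm10 annotation (RefSeq, GRCm38.p6). The cells were E14TG2a.4, a male line of strain 129/Ola that the labels place at an embryonic age of 3.5 days. No treatment, genotype or second condition is given, so the series forms 1 group of 2 biological replicates, which have separate biosamples but derive from the same donor. The data were lists of enriched regions with no read counts, so depth is unknown. No control library was analysed here. With 1 group there is no contrast to test, and all values below are descriptions.

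Tas2r genes encode G protein-coupled receptors that bind bitter compounds on taste cells of the tongue and on chemosensory cells of the airway and gut. Each is a short gene whose coding sequence lies in a single exon, and most sit in clusters formed by repeated gene duplication. Bitter receptors act through the G protein gustducin and a phospholipase to release calcium in the taste cell. H3K9me3 is a mark of silent chromatin that is found mainly over repeats in stem cells, and silent genes can lack it.

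In mm10 the members measured between 882 and 1044 bp, with a median of 936 bp. Of the 35 genes, 33 lay on chromosome 6, Tas2r119 lay on chromosome 15 and Tas2r134 on chromosome 2. Members no more than 500 kb apart were joined, which gave 4 clusters with 32 genes, all on chromosome 6, and 3 single genes. Cluster 1 held 3 genes, from Tas2r137 to Tas2r138, on chromosome 6 from 40441237 to 40563309 in mm9. Tas2r108, the receptor for denatonium, and Tas2r138, the counterpart of the human receptor for phenylthiocarbamide, belong to it. Cluster 2 held 5 genes, from Tas2r139 to Tas2r126, between 42090935 and 42385463. Cluster 3 held 6 genes, from Tas2r130 to Tas2r114, between 131579841 and 131640081. It includes Tas2r105, the receptor for cycloheximide. Cluster 4 held 18 genes, from Tas2r120 to Tas2r140, between 132606975 and 133005834. The single genes were Tas2r118, Tas2r119 and Tas2r134.

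In mm9 the shared H3K9me3 regions of the clusters lay between bitter receptor genes, and none overlapped a gene. Both kinds of sequence are shown here, read from the mm9 genome. The first set below shows 4 gene starts, 250 bases before to 50 bases after the annotated start, read in the direction of the gene. By shared mm9 regions, Tas2r144 and Tas2r130 were the members nearest to the mark and Tas2r115 was the furthest from it. Tas2r105 is the best known receptor. Capitals mark bases inside a 16-mer, a run of 16 bases, that occurs at least 50 times in the genome on either strand.
Tas2r144 start, chr6:42165077-42165376, plus strand: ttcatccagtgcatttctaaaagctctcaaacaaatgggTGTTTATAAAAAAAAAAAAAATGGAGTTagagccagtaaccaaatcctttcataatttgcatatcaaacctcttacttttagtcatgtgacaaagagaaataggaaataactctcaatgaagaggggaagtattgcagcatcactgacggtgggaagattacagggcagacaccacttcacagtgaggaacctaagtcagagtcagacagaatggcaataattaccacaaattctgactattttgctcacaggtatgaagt
Tas2r130 start, chr6:131580881-131581180, minus strand: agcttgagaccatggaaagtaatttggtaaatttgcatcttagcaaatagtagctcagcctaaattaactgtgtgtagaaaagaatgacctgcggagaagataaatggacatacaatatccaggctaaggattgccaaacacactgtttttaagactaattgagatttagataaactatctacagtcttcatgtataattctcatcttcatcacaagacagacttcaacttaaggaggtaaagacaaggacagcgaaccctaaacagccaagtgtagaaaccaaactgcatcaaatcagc
Tas2r115 start, chr6:132688004-132688303, minus strand: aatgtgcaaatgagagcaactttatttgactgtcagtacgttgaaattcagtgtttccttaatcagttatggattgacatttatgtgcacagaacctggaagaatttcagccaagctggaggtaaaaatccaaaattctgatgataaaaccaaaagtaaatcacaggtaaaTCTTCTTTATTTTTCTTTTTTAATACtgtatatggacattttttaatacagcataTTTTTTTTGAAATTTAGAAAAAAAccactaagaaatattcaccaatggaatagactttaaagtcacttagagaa
Tas2r105 start, chr6:131637464-131637763, minus strand: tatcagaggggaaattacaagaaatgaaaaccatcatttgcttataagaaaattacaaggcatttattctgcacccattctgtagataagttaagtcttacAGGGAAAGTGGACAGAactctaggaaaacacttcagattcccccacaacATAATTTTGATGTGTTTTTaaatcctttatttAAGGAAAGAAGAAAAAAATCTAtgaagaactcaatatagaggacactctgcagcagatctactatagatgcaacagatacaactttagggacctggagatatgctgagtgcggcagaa

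High-copy sequence made up little of these starts. Capitals covered 28 of 300 bases at Tas2r144, 0 at Tas2r130, 50 at Tas2r115 and 57 at Tas2r105. The number of CpG dinucleotides, the site of DNA methylation, was 1, 2, 1 and 1 in the same order. Of the 35 gene models in mm9, 26 begin with the start codon ATG and 9 do not. For those 26 the annotated start is the start of the coding sequence, and the true transcription start may lie further upstream.

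The second set shows 300 bases of a marked region in each cluster, namely the end of the region that faces the nearest member. Regions here are sequence covered in both replicates in mm9, called shared regions, and the letters are those of the plus strand. Capitals have the same meaning. The region named by Tas2r129 lies between Tas2r131 and Tas2r109. Tas2r129 is its nearest member by an mm9 model of 9637 bp, whereas in mm10 that gene spans 963 bp and lies beyond Tas2r131.
Region near Tas2r138, chr6:40555101-40555400, plus strand: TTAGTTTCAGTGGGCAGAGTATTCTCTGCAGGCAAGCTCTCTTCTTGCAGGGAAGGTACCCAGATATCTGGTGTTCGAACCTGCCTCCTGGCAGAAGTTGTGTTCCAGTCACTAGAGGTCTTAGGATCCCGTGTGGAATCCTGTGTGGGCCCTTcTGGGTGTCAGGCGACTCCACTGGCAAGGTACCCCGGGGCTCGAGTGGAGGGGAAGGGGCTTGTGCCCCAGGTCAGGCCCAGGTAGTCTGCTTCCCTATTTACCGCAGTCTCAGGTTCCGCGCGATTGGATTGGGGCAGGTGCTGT
Region near Tas2r144, chr6:42164101-42164400, plus strand: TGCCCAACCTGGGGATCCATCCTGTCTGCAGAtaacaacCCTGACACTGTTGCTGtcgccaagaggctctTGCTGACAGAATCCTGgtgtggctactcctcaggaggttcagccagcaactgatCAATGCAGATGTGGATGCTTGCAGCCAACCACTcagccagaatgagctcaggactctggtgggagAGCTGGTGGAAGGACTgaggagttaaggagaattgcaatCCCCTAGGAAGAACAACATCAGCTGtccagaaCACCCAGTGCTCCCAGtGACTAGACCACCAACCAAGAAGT
Region near Tas2r130, chr6:131583201-131583500, plus strand: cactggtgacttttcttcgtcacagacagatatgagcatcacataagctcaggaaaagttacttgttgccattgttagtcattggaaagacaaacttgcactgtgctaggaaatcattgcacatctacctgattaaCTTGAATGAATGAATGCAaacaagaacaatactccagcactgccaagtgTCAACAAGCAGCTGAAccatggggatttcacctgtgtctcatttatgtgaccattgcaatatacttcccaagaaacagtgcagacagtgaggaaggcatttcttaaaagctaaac
Region near Tas2r129, chr6:132911801-132912100, plus strand: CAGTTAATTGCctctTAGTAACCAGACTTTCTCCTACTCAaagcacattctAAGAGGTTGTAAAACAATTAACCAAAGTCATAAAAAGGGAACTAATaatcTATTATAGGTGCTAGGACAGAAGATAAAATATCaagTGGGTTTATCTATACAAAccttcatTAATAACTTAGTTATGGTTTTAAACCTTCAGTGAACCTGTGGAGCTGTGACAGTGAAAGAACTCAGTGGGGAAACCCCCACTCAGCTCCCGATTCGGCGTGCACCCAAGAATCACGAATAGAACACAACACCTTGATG

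In 3 of these 4 ends, high-copy sequence covered most of the bases. It covered 299 of 300 bases near Tas2r138, 177 near Tas2r144 and 271 near Tas2r129, but 34 near Tas2r130. The CpG count was 9 near Tas2r138, 4 near Tas2r129, 1 near Tas2r144 and 1 near Tas2r130. Region ends in mm9 fall on a grid of 200 bp, so the exact edge of the mark was not measured.

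Few bitter receptor gene starts were marked, and a count this near the background says nothing particular to them. A promoter was taken as 1 kb either side of any annotated start, and it was counted when at least 1 bp lay in a shared region. By this rule 1 of 35 members had a marked promoter, which is 2.86%, beside 5.54% of all protein-coding genes in mm9. The 1 member was Tas2r144, a receptor gene of cluster 2, and only 74 bp of its window was reached. The region lies upstream of the gene and ends 927 bp before its start. In replicate 1 it ran from 42159401 to 42164400 with a fold enrichment of 3.05, and in replicate 2 from 42158201 to 42165400 with 3.57. Fold enrichment is the authors' deposited ratio for a whole region, and its reference is not stated. In replicate 2 the region ran past the start of the Tas2r144 gene, which in mm9 lies on chromosome 6 from 42165327 to 42166286. The replicates therefore differed on whether the start itself was marked.

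Tas2r130, in cluster 3, was the second nearest gene. Its start lay 2271 bp from a shared region, but replicate 2 had a region from 131580601 to 131586600, with a fold enrichment of 2.33, that covered the start. In replicate 1 the nearest region began 2271 bp from the start. Replicate 1 thus marked 1 member promoter, beside 6.33% of protein-coding genes, and replicate 2 marked 2 members, or 5.71%, beside 7.83%. The pooled mm9 list marked 1 member, beside 8.47%. With windows of 2.5 kb the count was 2, Tas2r144 and Tas2r130, beside 9.08%. Taking only the 5′ end of the gene as its start gave 1, beside 3.84%, and asking for 50% of the window gave 0, beside 3.23%. Asking for a fold enrichment of 4 or more in both replicates gave 0, beside 1.82%. With promoters of 5 kb either side of the start, 4 members were reached, beside 15% of protein-coding genes. The other 2 of these were Tas2r131, whose start was 3250 bp from a shared region, and Tas2r109, at 3983 bp. Both lie in cluster 4, on either side of the same group of regions.

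Across the 35 genes the start lay a median of 14.2 kb from the nearest shared region. The distance ranged from 0.927 to 52.1 kb, and 22 members lay over 10 kb away. The share of all protein-coding genes over 10 kb away was not taken, but their median distance, given below, is above 10 kb. The 4 starts within 5 kb, those of Tas2r144, Tas2r130, Tas2r131 and Tas2r109, stand beside 12% of all protein-coding genes. The median was 13.98 kb with the replicate 1 list and 13.97 kb with the replicate 2 list. Counting only regions with a fold enrichment of 4 or more in both replicates moved it to 91.98 kb. For all protein-coding genes the median distance to any shared region was 31.3 kb. By that measure the median bitter receptor gene lay nearer to the mark than the median gene. The median of all genes was not taken at a fold enrichment of 4 or more, so the order there is not known. The 3 members furthest from a shared region in mm9 were Tas2r115 at 52.1 kb, Tas2r143 at 49.6 kb and Tas2r137 at 47.6 kb. Tas2r115 was 50.1 and 52.1 kb away in replicates 1 and 2, and Tas2r137 47.4 and 47.6 kb. Tas2r143 was 49.6 kb away in replicate 1 and 27.4 kb in replicate 2. By cluster the median was 45.2 kb in cluster 1, 15.3 kb in cluster 2, 11.998 kb in cluster 3 and 13.97 kb in cluster 4. The single genes were 6.03 kb (Tas2r134), 21.4 kb (Tas2r119) and 39.5 kb (Tas2r118) from a shared region. In mm10, distances from the gene body to a replicated peak had a median of 14.8 kb but gave another order. The furthest there was Tas2r116 at 60.4 kb, which lay 14.7 kb away in mm9. Tas2r115 lay 52132 bp, Tas2r137 47528 bp and Tas2r143 27532 bp from a replicated peak.

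**Figure D1:**
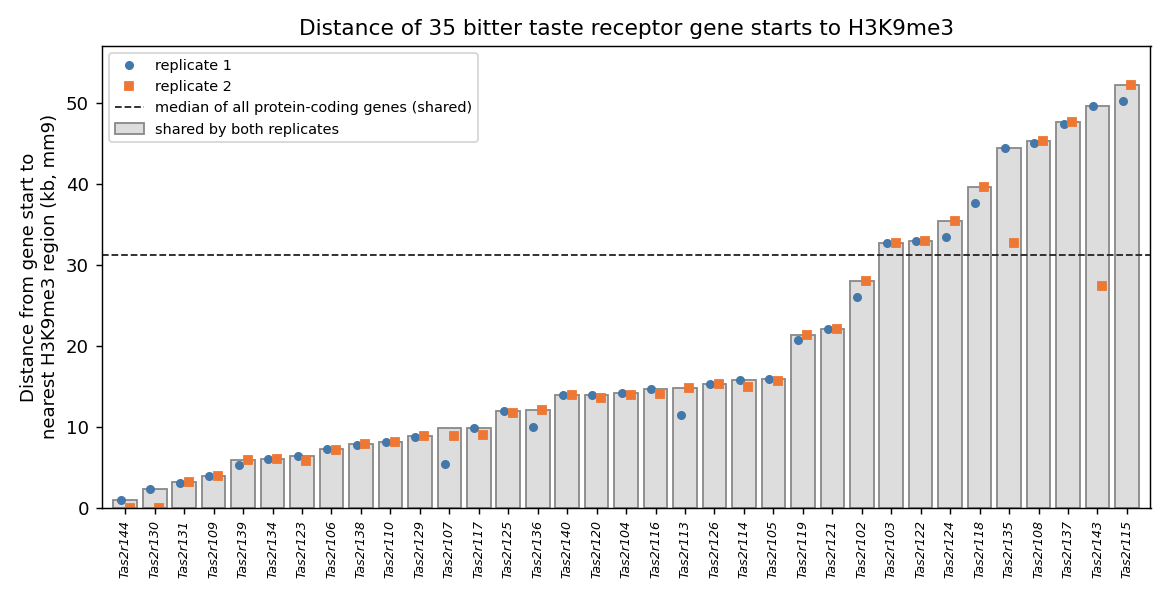
Distance in kb (mm9) from each of the 35 bitter taste receptor gene starts to the nearest H3K9me3 region, with grey bars for regions shared by both replicates, blue points for replicate 1 and orange squares for replicate 2. The bars run from 0.927 kb at Tas2r144 to 52.1 kb at Tas2r115, and the dashed line is the median of all protein-coding genes, 31.3 kb.

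Few gene bodies held the mark in either build. In mm9 no member had a base in a shared region, whereas 20.7% of protein-coding genes, most of which are much longer, had one. No share among genes as short as the members was taken in mm9, so the 2 values cannot be compared directly. In mm10, with the narrower peaks of the authors' replicated list, 1 of 35 members had a peak. The share of all protein-coding genes with one was 30.8%, and it was 4.7% among the 1191 other protein-coding genes with a span of 882 to 1044 bp. Leaving olfactory and vomeronasal receptor genes out of that comparison gave 4.38% of 160 genes. A count of 1 in 35 is near these shares of short genes and says nothing particular to the members. The 1 gene was Tas2r119, the counterpart of human TAS2R1, on chromosome 15 from 32177289 to 32178294. Its peak ran from 32178000 to 32178523 and covered the last 295 bp, or 29.3%, of the gene. The peak had a fold enrichment of 3.00 and a −log10 q of 3.94. Replicate 2 had a peak at the same place, with a fold enrichment of 3.55, and replicate 1 had none within 10446 bp of the gene.

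The per-replicate mm10 lists named different members. Replicate 1 had a peak of 175 bp within Tas2r130, with a fold enrichment of 2.76, and none in another member. The share of protein-coding genes with a peak in this list was 34.1%, or 5.79% of those as short as the members and 5% with the other receptor families left out. Replicate 2 had the Tas2r119 peak and a peak of 219 bp within Tas2r126, with a fold enrichment of 2.46. Its shares were 35.9%, 6.8% and 6.25% in the same order. No member body had a peak in both replicates. Summed over the 35 genes, replicated peaks covered 0.89% of bases, with 0.528% in replicate 1 and 1.52% in replicate 2. The 0.89% rests on the Tas2r119 peak alone. The same measure over all protein-coding gene bodies, whose median length is 17.2 kb, was 2.27%, with 1.78% and 2.41%. No such value was taken among genes as short as the members, so the shares cannot be compared directly.

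Starts could also be placed in mm10 for the 31 members that the RefSeq promoter table lists. Of these, 3 had a replicated peak within 1 kb, which is 9.68%, beside 5.89% of protein-coding genes with an entry. The order is the reverse of that in mm9, where the members' 2.86% lay below the 5.54% of all protein-coding genes. With counts of 3 and 1, both shares are near the background and say nothing particular to the members. The 3 members were Tas2r144 with 223 bp of the window covered, Tas2r119 with 290 bp and Tas2r130 with 8 bp. At Tas2r119 the 290 bp belong to the peak over the end of the gene, which replicate 1 lacked. The 4 members without an entry were Tas2r116, Tas2r117, Tas2r121 and Tas2r136.

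Between the genes the mark formed separate blocks a few kb wide. In mm9, 19 shared regions lay between members of the 4 clusters, with widths of 800 to 9600 bp and a median of 3200 bp. The median over the genome was 3400 bp. Together they covered 8.41% of the 836.9 kb between members, with 10.5% in replicate 1 and 10.7% in replicate 2. Shared regions covered 7.38% of all chromosomes and 7.83% of chromosome 6, so by this measure the sequence between bitter receptor genes was slightly above the genome. In mm10, replicated peaks covered 2.56% of the 845.2 kb between members, with 1.82% in replicate 1 and 2.86% in replicate 2. Over all chromosomes, measured up to the last peak of each, they covered 3.42%, which is above the value between members, so the order differed between the builds.

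The clusters differed in how much was covered. Cluster 3, the most compact, had 20.6% of its 54.4 kb of intervening mm9 sequence in shared regions, with 25.7% in replicate 1 and 33.6% in replicate 2. Cluster 1 had 11.6%, with 13.9% and 13.3%. Cluster 4 had 7.44%, with 9.47% and 8.03%, and cluster 2 had 6.08%, with 7.66% and 8.74%. Cluster 3 was the highest in both replicates, by more than the gap between them. Replicated mm10 peaks gave the same first place, with 6.01% for cluster 3, 3.40% for cluster 1, 2.32% for cluster 2 and 1.98% for cluster 4. The 100 kb on each side of cluster 2 had 30.5% of mm9 bases in shared regions, against 6.08% within it, and the sides of cluster 3 had 37.1%. Cluster 1 differed, with 2.08% at its sides against 11.6% within. Cluster 4 had 11.5% at its sides.

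**Figure D2:**
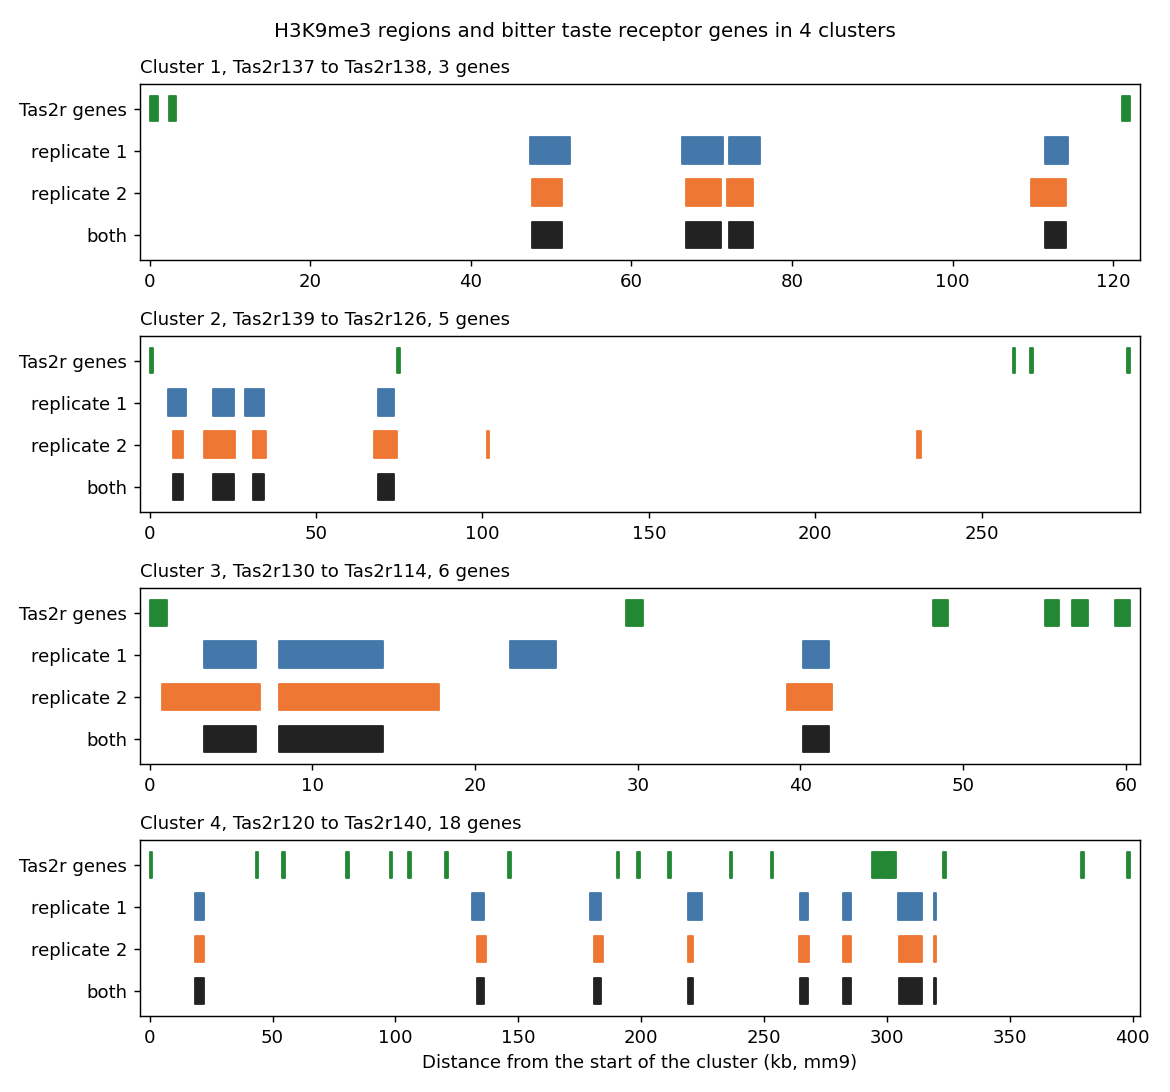
Maps of the 4 Tas2r clusters with distance in kb (mm9) from the start of each cluster on the horizontal axis and rows for Tas2r genes (green), regions of replicate 1 (blue), regions of replicate 2 (orange) and sequence in both (black). The 19 black blocks lie between the green genes, and none overlaps a gene.

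Short gaps between neighbouring genes held no mark. In mm9, 10 of 27 gaps between adjacent members held a shared region. The gap between Tas2r129 and Tas2r131 does not exist in mm9, where the Tas2r129 model of 9637 bp overlaps its neighbour. None of the 10 gaps under 15 kb, which sum to 63.5 kb, held a region in either replicate. All 836.9 kb between members held only 19 shared regions, so few would fall in 63.5 kb. Whether short gaps held fewer than their length would give was not tested. Of gaps from 15 to 30 kb, 5 of 10 held one, with 12.04% of bases covered, and of longer gaps 5 of 7, with 7.91%. In mm10 the 11 gaps under 15 kb, 68.5 kb in all, likewise held no peak in either replicate, and 8 of 28 gaps held a replicated peak.

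Several runs of neighbouring genes had no shared region between them. In cluster 2 this held from Tas2r144 through Tas2r143 and Tas2r135 to Tas2r126. In cluster 4 the 6 genes from Tas2r121 to Tas2r136 followed each other with no shared region in between, and so did Tas2r123, Tas2r116 and Tas2r110. In cluster 3 the genes Tas2r106, Tas2r104, Tas2r105 and Tas2r114 had none between them. The most covered gap in mm9 was the one from Tas2r131 to Tas2r109, with 48.4% of its 21.5 kb, 49.3% in replicate 1 and 48.4% in replicate 2. Next was Tas2r130 to Tas2r107 with 34.0%, where the replicates gave 44.0% and 54.8%. The third was Tas2r139 to Tas2r144 with 24.0%, where they gave 30.2% and 31.8%. In mm10 the order of the gaps differed. Replicated peaks covered 11.6% from Tas2r130 to Tas2r107 and 11.4% from Tas2r136 to Tas2r117. They covered 6.06% from Tas2r139 to Tas2r144 and 5.82% from Tas2r131 to Tas2r109. The gap of 183.95 kb from Tas2r144 to Tas2r143, which holds 7 other protein-coding genes, had no shared region in mm9. Replicate 2 alone had 2000 bp there. In mm10 this gap was not free of the mark. Replicated peaks covered 2268 bp of it, or 1.23%, with 979 bp in replicate 1 and 3097 bp in replicate 2.

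Coverage was lowest next to a gene. Within 1 kb of a member, 0.143% of the intervening mm9 sequence lay in shared regions, with 0.444% in replicate 1 and 3.86% in replicate 2. From 1 to 5 kb the value was 6.53%, from 5 to 10 kb 14.6%, from 10 to 20 kb 8.93% and from 20 to 60 kb 9.34%. In mm10 the same distances gave 0.429%, 2.13%, 1.52%, 3.65% and 4.12%. The nearest class was the lowest in each replicate and each build, but it holds only 51.8 kb in mm9, and in replicate 2 its value rests on the regions at Tas2r144 and Tas2r130. Beyond 1 kb the order of the classes differed between the builds.

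**Figure D3:**
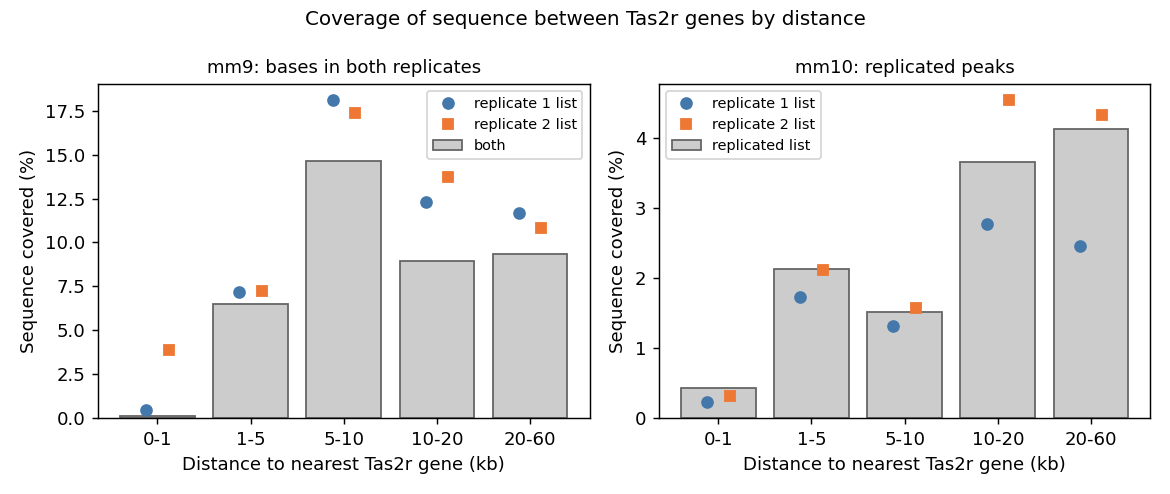
Percent of the sequence between Tas2r genes that lies under H3K9me3, by distance in kb to the nearest Tas2r gene, for mm9 (left) and mm10 (right). Grey bars are bases in both replicates (mm9) or under replicated peaks (mm10), and blue points and orange squares are the lists of replicate 1 and replicate 2. The class within 1 kb is the lowest in both builds, at 0.143% and 0.429%.

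The strongest block in mm9 lay in cluster 4, in the gap between Tas2r131 and Tas2r109. Tas2r131 is a receptor known for its use in marking bitter taste cells. The block spanned 9.6 kb from 132911801 to 132921400 in mm9. Its fold enrichment was 6.02 in replicate 1 and 8.17 in replicate 2, or 7.09 ± 1.52 (SD, n = 2). A region of 0.8 kb from 132926201 to 132927000, next to Tas2r109, had 5.01 ± 0.34. A region of 3.0 kb from 132889201 to 132892200, in the gap before Tas2r129, had 4.41 ± 1.498. These were the 3 with a mean of at least 4. The other 16 regions had means from 2.13 to 3.76, and replicate 2 had the higher value at 17 of the 19. This ranking holds for mm9, since in mm10 the highest fold enrichment of a replicated peak between members, 10.4, lay in cluster 2.

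In mm10 the intervening sequence held 31 replicated peaks, of 208 to 2484 bp. Their median width was 413 bp and their median fold enrichment 4.80, beside 528 bp and 4.20 for replicated peaks on all chromosomes. Peaks of both replicates overlapped 23 of them, and 24 lay over 5 kb from any member. The widest, from 132790118 to 132792601 between Tas2r136 and Tas2r117, had a fold enrichment of 7.73, with 6.76 in replicate 1 and 7.97 in replicate 2. The second, from 42212581 to 42214550 and 0.777 kb from Tas2r144, had 7.95, with 5.72 and 7.16. It lies on the side of Tas2r144 where the shared mm9 region lies. The third, from 42371299 to 42372706, had 7.35 and overlapped Epha1, an ephrin receptor gene of cluster 2, and the gene 2010310C07Rik. The highest fold enrichment of the 10 widest, 10.4, belonged to a peak of 1103 bp from 42162841 to 42163943 between Tas2r139 and Tas2r144. Its replicates differed, with 6.76 and 12.03.

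Others of the 10 widest fell into the same gaps. A pair of 1384 and 1208 bp lay in the gap from Tas2r108 to Tas2r138, with fold enrichments of 4.48 and 6.15. A peak of 1360 bp with 6.45 lay between Tas2r125 and Tas2r129, and one of 1066 bp with 7.05 between Tas2r131 and Tas2r109. A peak of 906 bp with 4.90 lay 4.56 kb from Tas2r130, and one of 870 bp with 4.46 lay between Tas2r139 and Tas2r144. All 10 had a peak in each replicate.

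Marked and unmarked intervening sequence differed in content. Of the covered bases between members in mm9, 63.5% began a 16-mer with at least 50 copies, against 19.9% of the bases not covered. Within the lists of replicate 1 and replicate 2 the covered share was 64.2% and 60.1%. Gene bodies had 2.83%, but 0.754% without the Tas2r129 model of 9637 bp, and the median over single members was 0.484%. The windows of 1 kb around gene starts had 3.83%, beside 7.26% for all protein-coding promoters. All chromosomes had 18.7% and all shared regions of the genome 51.4%. High-copy share exceeded that of all chromosomes in 17 of the 19 regions and ranged from 12.6% to 99.2%. The 2 below it lay in cluster 1, from 40513401 to 40516400, and in cluster 4, from 132740201 to 132743000, with 12.9%. The sources do not state how reads from repeated sequence were placed, and its part in these values was not tested.

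CpG density followed the same contrast. Covered intervening sequence had 11.9 CpG per kb and uncovered sequence 5.92, with 8.34 over all chromosomes. The strongest mm9 block, near Tas2r131, had the highest value of the 19 regions, 26.6 per kb, with a high-copy share of 58.7%. Only 10 of the 19 regions lay above the value of all chromosomes. Member bodies had 5.77 per kb, and member starts 4.89, beside 24.4 for all protein-coding promoters. The promoter windows of single members ranged from 1.00 to 10.99 CpG per kb, so no member start reached the mean of protein-coding promoters. GC content was 42.3% in covered and 39.1% in uncovered sequence, and 39.0% in member bodies.

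High-copy sequence was itself scarce close to the genes. It made up 9.28% of intervening sequence within 1 kb of a member, 24.2% from 1 to 5 kb, 32.3% from 5 to 10 kb, 26.5% from 10 to 20 kb and 23.1% from 20 to 60 kb. This order matches that of mm9 coverage in its lowest and highest class. In mm10 it matches only in the lowest class. Coverage there was highest from 20 to 60 kb, at 4.12%, and was 1.52% from 5 to 10 kb. Whether high-copy share and coverage depend on each other was not tested.

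**Figure D4:**
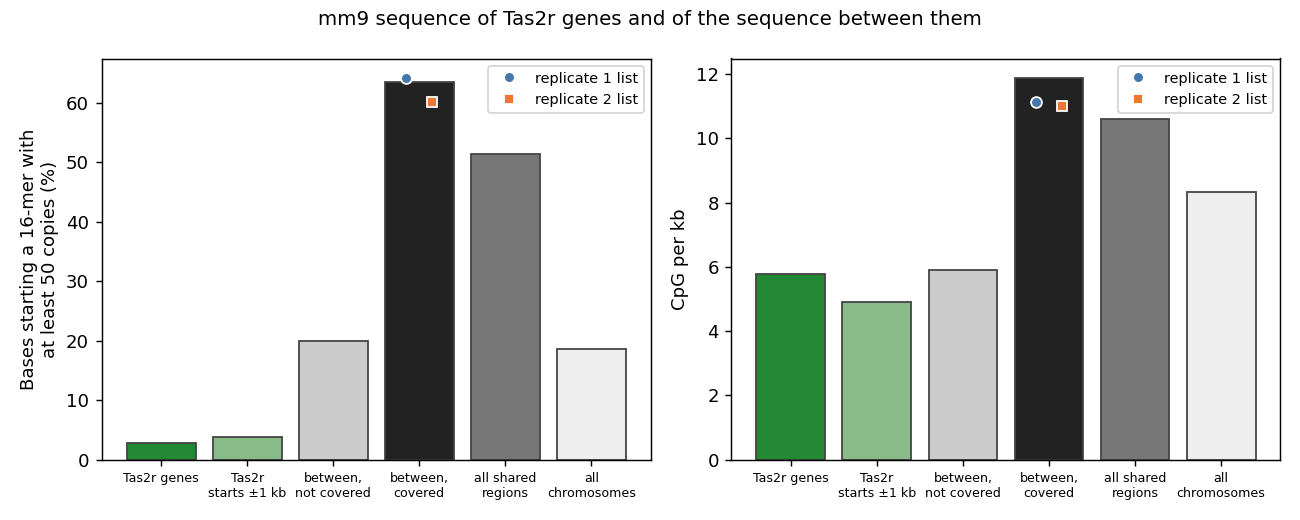
Share of bases that start a 16-mer with at least 50 genomic copies (left, in percent) and CpG dinucleotides per kb (right) in mm9, for Tas2r genes, windows of 1 kb either side of their starts, uncovered and covered sequence between them, all shared regions and all chromosomes. Points on the covered bar are the lists of each replicate. Covered intervening sequence stands at 63.5% and 11.9 per kb, against 19.9% and 5.92 where it is not covered.

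Other chemosensory receptor families also lie in large clusters, and their values are set beside those of Tas2r without a test. Replicated mm10 peaks covered 6.09% of the sequence between olfactory receptor genes, 6.19% between type 1 and 7.95% between type 2 vomeronasal receptor genes, against 2.56% between Tas2r genes. The Tas2r values of both replicates, 1.82% and 2.86%, lay below the lowest replicate value of the other families, 4.23%. In mm9 Tas2r was also the lowest, with 16.5%, 25.4% and 24.1% against 8.41%. Peaks overlapped 72 of 1110 olfactory receptor bodies, or 6.49%, and 13 of 231 type 1 vomeronasal bodies, or 5.63%, against 1 of 35. For type 2 vomeronasal genes, whose median body of 24.4 kb is far longer, the count was 47 of 124, or 37.9%. A single Tas2r gene decides its share. Starts of olfactory receptor genes lay a median of 11.1 kb from a shared region, and type 1 and type 2 vomeronasal genes 7.30 and 7.87 kb. The Tas2r family covers 845.2 kb of intervening sequence in mm10, against 28860 kb for olfactory receptors, so a few blocks decide its value.

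**Figure D5:**
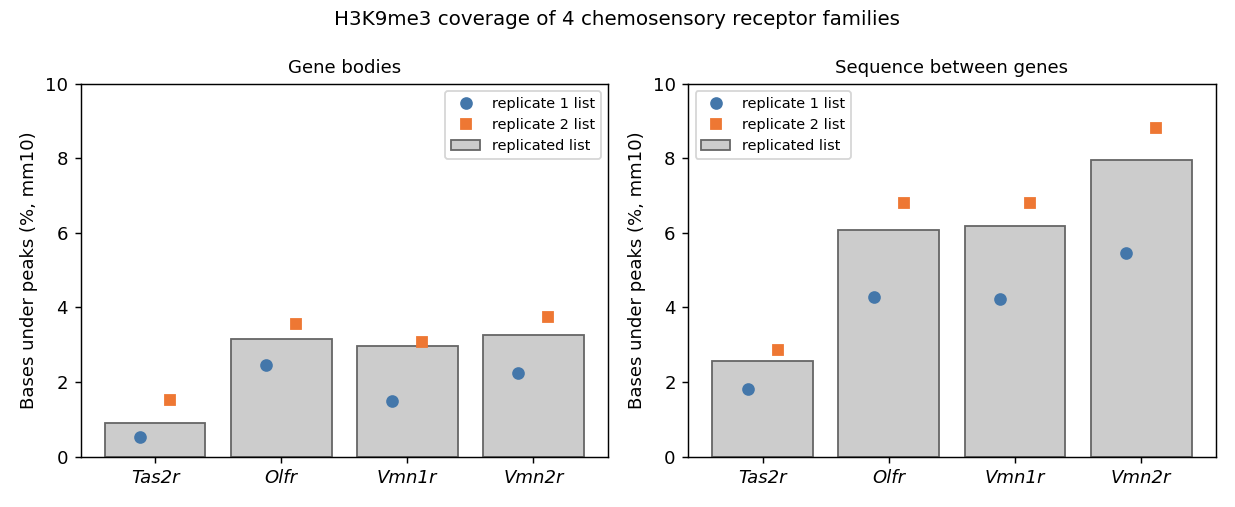
Percent of bases under H3K9me3 peaks in mm10 for gene bodies (left) and for the sequence between genes of the same cluster (right) in the Tas2r, Olfr, Vmn1r and Vmn2r families. Grey bars are replicated peaks, and blue points and orange squares are the lists of replicate 1 and replicate 2. Between genes, the bars stand at 2.56% for Tas2r and at 6.09%, 6.19% and 7.95% for the others.

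Genes that act with the receptors in taste cells were counted by the same rules. The list held 21 genes, of which 20 were found as protein-coding in mm9 and Calhm3 was not. Shared regions reached 0 of the 20 promoters, beside 5.54% of all protein-coding genes, and with so few genes this is near the background. The count was 1 with the pooled mm9 list and 1 with windows of 5 kb. The sweet and umami receptor genes Tas1r1, Tas1r2 and Tas1r3 lay 114.9, 4.75 and 48.7 kb from a shared region. Gnat3, the G protein subunit gustducin that bitter receptors signal through, lay 14.4 kb away, and Gnb3, a beta subunit, 37.7 kb. The bodies of 6 of 20 pathway genes had a replicated mm10 peak, which is near the 30.8% of all protein-coding genes. Of the first 5 of the list, the covered share of the body was 5.63% for Tas1r2, 5.01% for Gnat3 and 8.002% for Gnb3, and 0% for Tas1r1 and Tas1r3. The Gnb3 peaks were absent from replicate 1, which had 0% there, and present in replicate 2 with 5.07%.

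The cell label was set against marker genes by the same rule, since no expression was measured. None of 10 stem cell markers, Pou5f1 and Nanog among them, had a marked promoter, beside 5.54% of all protein-coding genes. Esrrb, a stem cell factor, had 1407 bp of its window in a region of replicate 2 and none in replicate 1. Of 6 genes of fibroblasts, which can serve as feeder cells, 1 had one, namely Lum with a fold enrichment of 4.94 in replicate 1 and 4.87 in replicate 2. None of 5 markers of taste and tuft cells had one. No list held more than 1 such gene. Without expression values these counts do not identify a cell type.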

How the data were processed

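ChIP-seq of H3K9me3 had been run by the submitters on 2 replicates, and the deposited files were peak lists. Per the deposited file lists, mm9 lists are of broadPeak type and mm10 lists of narrowPeak type, and the replicated mm10 list was made from the pooled and both per-replicate lists. The sources used here do not give the aligner, the peak caller or their versions. The deposited fold enrichment is a linear ratio per peak. The authors gave a −log10 q per peak in mm10 and a linear q-value in mm9. mm9 lists held 43006 and 53405 regions, and the bases in both were used (195.9 Mb). The replicated mm10 list held 123489 peaks. A further mm9 list for the whole series is called the pooled list, although its making is not stated.

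Overlaps of at least 1 bp, distances and coverage were computed with Python 3.11.15 and numpy 2.4.6. In mm9, genes, starts and sequence came from GENCODE M1 and the NCBIM37 assembly, within whose chromosomes all regions lay. In mm10, spans came from RefSeq (GRCm38.p6). No coordinates were converted. Copies of 16-mers were counted on both strands over 21 chromosomes. Interval and 16-mer code was tested on simulated data. Promoter sequence was read from mm9. No statistical test was run. Named genes were the members marked at the promoter or body, those within 5 kb of a region, the 3 furthest, the 10 widest peaks between members and the first 5 pathway genes. Members and lists were chosen with earlier results of these data known. The starts from the RefSeq promoter table, and member bodies without the long Tas2r129 model, were added as alternatives after seeing the data.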

Additional observations from a re-analysis of the deposited data

How the results depend on the processing

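The count of 1 marked promoter was 1 to 2 when either replicate was left out, 2 with windows of 2.5 kb, 4 with 5 kb, 3 with mm10 peaks and RefSeq starts, and 0 when both replicates had to reach a fold enrichment of 4 or with at least 50% of the window covered. The count of 1 marked body was 1 to 2 when either replicate was left out, and 0 for peaks with a fold enrichment of 4 or more, with at least 50% of the span covered, or in mm9. The covered share of member bodies, 0.89%, was 0.528% to 1.52% when either replicate was left out, and 0% for peaks with a fold enrichment of 4 or more or in mm9. The covered share between members, 2.56%, was 1.82% to 2.86% when either replicate was left out, 8.41% in mm9 and 4.03% with members up to 1000 kb apart, which joins clusters 3 and 4. The median distance, 14.2 kb, was 13.967 to 13.975 kb when either replicate was left out, 13.97 kb with the pooled mm9 list and 91.98 kb when both replicates had to reach a fold enrichment of 4. The pathway count of 0 was 1 with the pooled mm9 list and 1 at 5 kb. The cause of these changes was not tested. The high-copy share of member bodies, 2.83%, was 0.754% without the Tas2r129 model, an alternative added after seeing the data. In all, 23 of 44 alternatives left the value unchanged by a fixed rule. The rule was within 1.5 times for a count and within 1 SD between replicates for a covered share or the median distance. For a covered share that SD comes from the same 2 replicates that were left out in turn. A main value between theirs thus tends to count as unchanged, as it did for body shares of 0.528% and 1.52%. For the distance that SD was only 0.0057 kb, so all 4 of its alternatives counted as changed, including those of 13.967 and 13.975 kb. The high-copy share was judged instead by a standard error over bases. Counts of 1 rest on single regions, and the unknown depth limits what a missing region shows. No paired analysis was possible because the series has 1 group.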

Other observations

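The 5 Tas2r pseudogenes annotated in mm10, all on chromosome 6, had no base under a replicated peak or under a peak of either replicate. Of protein-coding genes with a span of 882 to 1044 bp, 4.7% had a replicated peak, so 0 of 5 is near that share. The pseudogenes lay between 2.42 kb (Tas2r145-ps3) and 27.3 kb (Tas2r111-ps2) from a replicated peak. Clusters 1 and 2 also hold 11 protein-coding genes of other families in mm9, 4 in cluster 1 and 7 in cluster 2. None had a shared region at its promoter, beside 5.54% of all protein-coding genes. A count of 0 in 11 is near this share and says nothing particular to these genes. They include Casp2, a caspase, Clcn1, the muscle chloride channel, and Zyx, which encodes zyxin. Epha1 had 534 bp of its promoter window in a region of replicate 2 and none in replicate 1.

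Clusters 3 and 4 are separated by 966.9 kb that hold 7 protein-coding genes in mm9, among them Prb1, Prh1, Prp2 and Prpmp5, which are proline-rich protein genes. Shared regions covered 19.8% of this stretch in mm9, with 22.8% in replicate 1 and 24.3% in replicate 2, against 20.6% between the members of cluster 3 and 7.44% between those of cluster 4. Replicated peaks covered 5.33% of it in mm10. The 1527.6 kb from cluster 1 to cluster 2, which hold trypsin genes and Trpv5 and Trpv6, calcium channel genes, had 10.8% in mm9 and 2.79% in mm10.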
